A study of Mus musculus with 2 samples.

Results

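The defensin genes of the mouse small intestine were described across 2 technical libraries of 1 tissue sample. Members were all genes whose GENCODE M21 symbol starts with Defa or Defb followed by a digit or a hyphen, which gave 82 of the 43346 Ensembl genes in the tables. Of these, 39 were alpha-defensin genes (22 coding genes and 17 annotated pseudogenes) and 43 were beta-defensin genes (42 coding genes and 1 pseudogene). The tissue came from 1 adult female C57BL/6J mouse aged 10 weeks, and its polyadenylated RNA was sequenced as technical replicate 1 (the first library) and technical replicate 2 (the second library, prepared later). Whether they share 1 RNA extraction is not stated in the labels. No condition was compared, and n = 2 libraries of 1 animal throughout.

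Defensins are small cationic peptides held by disulfide bonds that damage bacterial membranes. Mouse alpha-defensins, also called cryptdins, are made as precursors by Paneth cells at the base of the small intestinal crypts, stored in granules, cut to the active form by the protease Mmp7 and released into the crypt lumen. Beta-defensins are made by many surface epithelia, and a large group of them is transcribed in the epididymis. Mouse alpha-defensin genes lie in 1 dense cluster of recent duplicates, several of which encode the same precursor.

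The libraries held 28277875 and 24509862 expected counts. Mitochondrial genes with their nuclear copies took 72.3% and 21.6% of all TPM (a level per effective length, scaled to a common sum), which lowers the TPM of every other gene in the first library. Differences between libraries are therefore given as log2 ratios of expected counts, second over first, scaled by TMM. Small intestinal epithelium markers summed to 5969 and 9569 TPM, and the stomach markers Gkn2, Atp4b and Muc5ac had 0 counts in both. The log2 ratios of the epithelium markers ran both ways: Sis -2.29, Fabp2 -0.55, Cdx2 1.73, Vil1 2.11, Lct 2.78 and Alpi 3.84. Log2 ratios followed GC content over all tested genes. Values after removal of that trend are therefore given for the alpha-defensin family and for members whose sign or call changed. The other tested members kept both. For the epithelium markers, values after removal ran from -2.31 (Cdx2) to 2.15 (Lct). Because the tissue was measured in bulk, a level given here does not separate the number of Paneth cells from the RNA per cell. The cause of the differences between the libraries was not tested.

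The copies that held most of the counts are shown by their coding sequences, because their near identity bears on every single-gene value. The transcript sequences are those of GENCODE M21 on mm10, where the 22 coding alpha-defensin genes lie on chromosome 8 between 21025545 and 21735471. Defa24 (chr8:21734494-21735471, plus strand) and Defa30 (chr8:21134642-21135598, plus strand) were the most distinct of the abundant genes. Their coding sequences of 282 bases differed by the substitutions T72C, G154T, A174G and T259A, counted from the A of the start codon with the Defa24 base first. Those positions are in capitals.
Defa24: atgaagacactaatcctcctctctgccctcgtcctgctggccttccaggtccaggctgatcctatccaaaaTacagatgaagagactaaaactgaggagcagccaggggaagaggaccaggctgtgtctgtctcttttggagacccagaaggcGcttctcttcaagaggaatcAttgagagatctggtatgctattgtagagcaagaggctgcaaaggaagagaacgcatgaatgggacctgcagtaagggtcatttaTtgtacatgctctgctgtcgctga
Defa30: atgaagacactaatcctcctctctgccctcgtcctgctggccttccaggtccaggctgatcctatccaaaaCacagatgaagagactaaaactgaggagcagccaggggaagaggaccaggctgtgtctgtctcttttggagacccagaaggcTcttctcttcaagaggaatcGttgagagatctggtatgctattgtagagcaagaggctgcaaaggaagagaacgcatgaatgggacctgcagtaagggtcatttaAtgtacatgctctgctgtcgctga
Defa3 (chr8:21287409-21288377, plus strand) and Defa17 (chr8:21655780-21656735, plus strand) shared 1 coding sequence, and so did Defa23 (chr8:21055047-21056016, plus strand) and Defa31 (chr8:21191614-21192549, plus strand), so each is printed once.
Defa3 and Defa17: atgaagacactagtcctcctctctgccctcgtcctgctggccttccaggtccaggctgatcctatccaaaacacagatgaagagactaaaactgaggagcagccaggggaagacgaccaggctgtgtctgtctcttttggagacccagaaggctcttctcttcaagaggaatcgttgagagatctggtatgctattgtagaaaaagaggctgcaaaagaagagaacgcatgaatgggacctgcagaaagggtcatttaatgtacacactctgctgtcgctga
Defa23 and Defa31: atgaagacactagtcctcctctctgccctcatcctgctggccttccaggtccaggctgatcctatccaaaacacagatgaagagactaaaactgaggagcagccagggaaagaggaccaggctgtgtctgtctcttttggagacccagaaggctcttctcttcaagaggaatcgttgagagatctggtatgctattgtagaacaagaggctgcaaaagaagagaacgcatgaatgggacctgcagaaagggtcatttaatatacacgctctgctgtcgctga
The annotated transcripts of Defa3 and Defa17 differed at 1 of 397 aligned bases, outside the coding sequence, and the Defa3 model began 13 bases further upstream. The transcripts of Defa23 and Defa31 had 0 mismatches over 377 aligned bases, and the Defa23 model was longer by 34 bases at its 5′ end. A read that lies within the shared 377 bases cannot be assigned to either gene by its sequence.

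The upstream window of Defa23 is shown because it has the same 300 bases as that of Defa31, from 250 bases before to 50 after the RefSeq start. RefSeq (GRCm38.p6) had such a window for 12 of the alpha-defensin members and 30 of the beta-defensin members. Below are the 250 bases before the start of Defa23 (chr8:21054790-21055039, plus strand), with capitals on matches to CTTTGA or CTTTGT, the core letters bound by the TCF and LEF factors of Wnt signalling, in either direction, and on TATAAA, the TATA box letters.
Defa23 upstream: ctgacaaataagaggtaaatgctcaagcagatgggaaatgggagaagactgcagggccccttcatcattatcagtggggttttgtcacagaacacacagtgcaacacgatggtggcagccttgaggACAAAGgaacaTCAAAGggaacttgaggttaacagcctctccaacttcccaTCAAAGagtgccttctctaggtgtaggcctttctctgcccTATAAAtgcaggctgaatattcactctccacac
CTTTGA, searched on both strands, was found in 12 of 12 alpha-defensin windows, in 26.7% of the beta-defensin windows and in 5257 of all 32851 windows in the table. CTTTGT was found in 9 of the 12 alpha-defensin windows, 23.3% of the beta-defensin windows and 18.7% of all windows. TATAAA was found in 11 of the 12 alpha-defensin windows, 16.7% of the beta-defensin windows and 13.6% of all windows. These letter matches describe the windows and do not show that a factor binds there, and the alpha-defensin windows are copies of one another and not independent.

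Alpha-defensin transcripts were among the most abundant of the tissue and beta-defensin transcripts were at the limit of detection. The 39 alpha-defensin genes summed to 32695 and 144298 expected counts, or 5391 and 32728 TPM. That was 0.539% of TPM in the first library and 3.27% in the second. With mitochondrial genes and their nuclear copies left out of the denominator, the shares were 1.95% and 4.17%. The family sum was 2.85-fold higher in the second library by scaled counts (log2 ratio 1.51, counting SE 0.00884) and 6.07-fold higher by TPM. The 22 coding genes held nearly the whole sum, since the 17 pseudogenes held 20 and 41.0 counts.

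In all, 25 of the 39 alpha-defensin genes had a count in either library, 20 of them coding. At 1 TPM or more, 16 genes passed in both libraries, 5 passed only in the second and 2 (Defa31 and Defa2) only in the first. Of the 5, Defa-ps4 held 1 count in the second library, Defa-ps7 3, Defa28 3.96 and Defa-ps18 8.04. The remaining gene, Defa33, as well as Defa31 and Defa2, shares reads with near-identical copies. Levels were concentrated in few genes: the 5 highest held 93.4% of the family's TPM in the first library and 94.96% in the second. Defa24, Defa30 and Defa37 were among the 5 highest in both. Defa17 and Defa31 completed the list in the first library, and Defa3 and Defa23 did so in the second. Defa17 with Defa3, and Defa31 with Defa23, are near-identical copies that share reads. Which copy is listed therefore depends on how those reads were divided. Summed, Defa3 and Defa17 stood at 1957 and 8330 TPM, and Defa23 and Defa31 at 1529 and 7036 TPM.

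**Figure D1:**
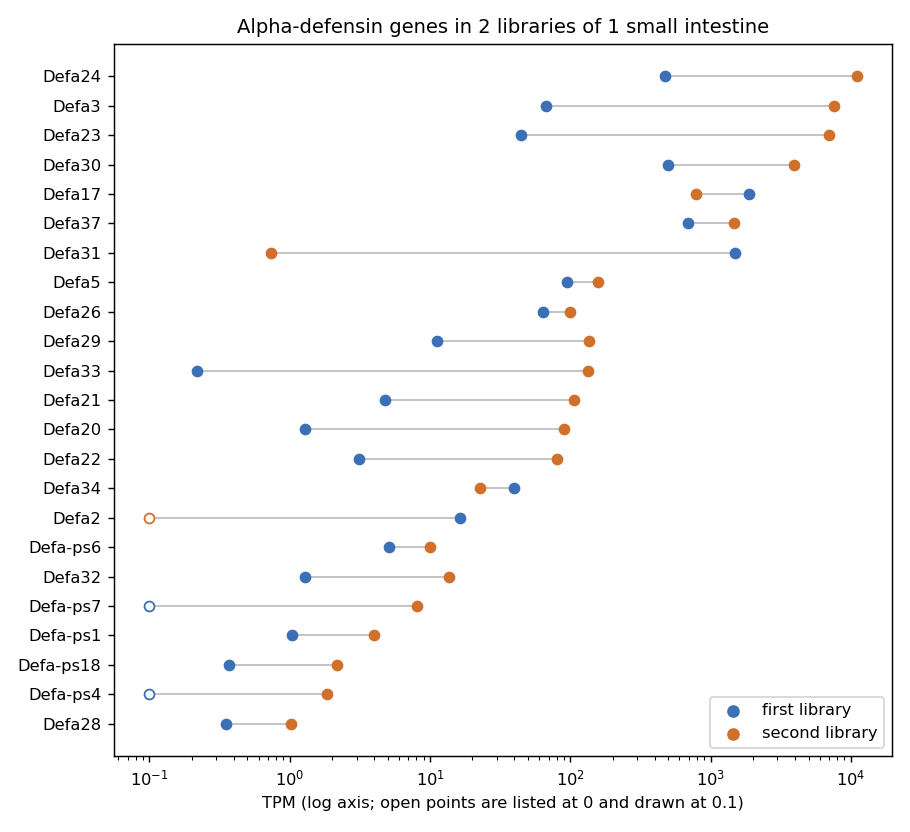
TPM on a log axis for the 23 alpha-defensin genes that reached 1 TPM in at least 1 library, with the first library in blue and the second in orange and genes ordered by mean TPM. Open points stand for a listed value of 0. Defa24 is highest in the second library at 11074 TPM, and Defa31 runs from 1484 TPM in the first library to 0.73 TPM in the second.

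Defa24 stood at 475 TPM in the first library and 11074 TPM in the second, from 3231 and 50488 counts. With mitochondrial genes and their nuclear copies left out, its TPM was rank 2 of all genes in the second library and rank 63 in the first. Its log2 ratio was 3.33 (SE 0.0262), a 10.1-fold difference. Of its 75-base windows, 93.3% occur in no other annotated transcript, and the deposited posterior SD of its count was 0 and 1.20, so its count did not rest on sharing of reads with a copy.

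Defa30 stood at 495 and 3954 TPM, from 3066 and 16481 counts, with a log2 ratio of 1.79 (SE 0.0284). It also had mostly distinct sequence (79.3% of windows) and a posterior SD of 0 and 1.32 counts. In the first library its deposited interval (463 to 497 TPM) overlapped that of Defa24 (445 to 477 TPM), so their order there is within the estimation error. In the second library the intervals of these genes (3721 to 3837 and 10481 to 10669 TPM) were far apart. The deposited intervals belong to the posterior mean TPM, which lies a little below the TPM value itself.

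Defa17 was the leading alpha-defensin gene of the first library and 1 of 4 members called higher there. It stood at 1889 and 783 TPM, from 11648 and 3247 counts, with a log2 ratio of -2.48 (SE 0.0459). Its near copy Defa3 moved the other way, at 67.5 and 7548 TPM from 442 and 33145 counts, with a log2 ratio of 5.60 (SE 0.318). The posterior SD was 95.2 and 76.3 counts for either gene. Summed, the pair held 12090 and 36392 counts and its log2 ratio was 0.96, smaller in size than that of either gene.

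The pair of Defa23 and Defa31 showed the same exchange more sharply. Defa31 stood at 1484 TPM in the first library and 0.73 TPM in the second, from 8288 and 2.76 counts, with a log2 ratio of -11.94 (SE 1.75). Defa23 stood at 44.5 and 7035 TPM, from 293 and 31023 counts, with a log2 ratio of 6.09 (SE 0.222). Defa31 thus held 96.6% of the pair's counts in the first library and Defa23 99.99% in the second. The pair sum was 8580 and 31026 counts, a log2 ratio of 1.22. None of the 75-base windows of Defa31 and 10.1% of those of Defa23 were distinct among M21 transcripts. The distinct ones were the 34 windows that reach into the extra 5′ bases of the Defa23 model. Those extra bases lie inside the 300-base window around the RefSeq start, which had 0 mismatches between Defa23 and Defa31. The distinction therefore rests on where the models begin and not on a difference in genomic sequence.

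**Figure D2:**
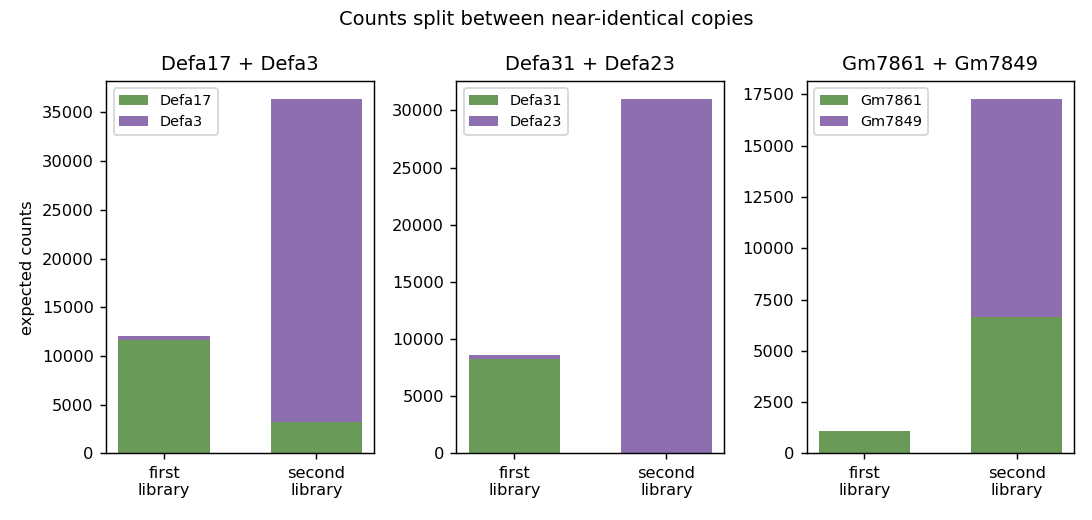
Expected counts of 3 pairs of near-identical copies in the first and second library, with each bar starting at 0 and divided by gene. Defa17 and Defa31 hold most of their pair's bar in the first library, Defa3 and Defa23 do so in the second, and all 3 bars are taller in the second library.

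Defa37 stood at 691 and 1468 TPM, from 4382 and 6255 counts, and was the third and the fifth most abundant member. Its log2 ratio of -0.12 (SE 0.0287) passed the exact binomial test (adjusted p = 3.8e-05) but not the 2-fold limit, and its sign was positive with library sizes taken from total counts (0.72) and after removal of the GC trend (0.81). Its copy Defa36 had 0 counts in both libraries. The M21 transcripts of Defa36 and Defa37 had 0 mismatches over 403 bases, while the model of Defa36 in the deposited tables held 282 bases against 420 in M21. No 75-base window of Defa37 was distinct in M21, so the counts of this pair cannot be placed on 1 gene by sequence.

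The remaining genes of the classical cryptdin type were lower. Defa5 stood at 94.8 and 157 TPM (log2 ratio -0.47) and Defa26 at 63.4 and 99.3 TPM (-0.55), both within 2-fold, with positive signs at 0.37 and 0.29 when scaled by total counts, and at 0.50 for Defa5 after removal of the GC trend. Defa34 stood at 39.9 and 22.7 TPM, from 221 and 84.8 counts. It was called higher in the first library (log2 ratio -2.01, SE 0.39) but after removal of the GC trend its value of -0.82 was inside the 2-fold limit. Defa26 shared few windows with other transcripts (85.9% distinct), while Defa5 (2.65%) and Defa34 (22.9%) shared most.

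Defa21 and Defa22, which differ at 2 of 418 aligned bases, gave like values. Defa21 stood at 4.81 and 107 TPM and Defa22 at 3.14 and 80.5 TPM, with log2 ratios of 3.24 and 3.44. Defa2, Defa20, Defa32 and Defa33 form a set of copies with 1 or 2 mismatches between any of them. Within this set Defa2 held 50.2 of 69.0 counts in the first library and 0 counts in the second. No fold is given for Defa2 alone, since its reads could be placed on the other copies, and its deposited intervals ran from 9.48 to 20.1 TPM in the first library and up to 3.05 TPM in the second. Defa33 had 0.96 and 395 counts, Defa20 had 8.94 and 419, and Defa32 had 8.94 and 63.4. The 4 genes summed to 69.0 and 877 counts, a log2 ratio of 3.03, and none had a distinct 75-base window. The tables used shorter models for Defa2 (288 bases) and Defa33 (333 bases) than M21 (426 bases for either), which raises their TPM per count.

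Among the tested alpha-defensin genes, 7 in the first library and 8 in the second had a posterior SD of 10 counts or more. Over all 18 tested genes, the posterior SD was larger than the counting error for 7 in the first library and 5 in the second. Of the 22 coding genes, 11 had fewer than 20% distinct 75-base windows. The expected count and the posterior mean count, the other deposited estimate of the same quantity, differed by at most 23.3 counts for any alpha-defensin gene and gave the same family log2 ratio of 1.51. When only the 24 alpha-defensin genes with a posterior SD under 2 counts in both libraries were summed, the log2 ratio was 2.70, in a sum held mostly by Defa24 and Defa30.

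Defa29 belongs to the cryptdin-related genes (named CRS1C among the RefSeq synonyms), whose precursors have more and differently spaced cysteines. It stood at 11.3 and 135 TPM, from 107 and 840 counts, with a log2 ratio of 2.34 (SE 0.187). Further alpha-defensin genes lie outside the symbol rule, since M21 gives other symbols to 6 genes that RefSeq names as alpha-defensins. Gm14851 (RefSeq Defa38) stood at 29.0 and 2343 TPM, Gm7849 (Defa42) was listed at 0 and 1819 TPM, AY761184 (Defa39, matched by position) stood at 80.8 and 1659 TPM, and Gm7861 (Defa43) at 116 and 1075 TPM. The other two were lower and closer to the classical type. Gm15293 (Defa41), with 99.2% identity to Defa5, stood at 0.15 and 87.3 TPM, and Gm15292 (Defa40), with 98.1% identity to Defa26, at 22.5 and 32.3 TPM. Of the 6, 5 were called higher in the second library, as were 40.2% of all tested genes, and Gm15292 was within 2-fold. Gm7849 and Gm7861 among the 5 are copies that share reads.

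Gm7849 (chr8:21455445-21456560, minus strand) and Gm7861 (chr8:21593375-21594508, minus strand) were another pair with 1 coding sequence, of 351 bases. Its first 300 bases are printed for comparison with the shorter cryptdin type above.
Gm7849 and Gm7861: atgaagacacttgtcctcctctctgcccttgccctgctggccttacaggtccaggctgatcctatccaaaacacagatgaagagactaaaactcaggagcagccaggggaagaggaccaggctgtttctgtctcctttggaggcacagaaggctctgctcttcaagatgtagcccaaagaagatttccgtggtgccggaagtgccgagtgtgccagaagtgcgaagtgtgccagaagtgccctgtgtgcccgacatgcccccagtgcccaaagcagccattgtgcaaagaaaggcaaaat
Their transcripts had 0 mismatches over 488 bases. Gm7849 had 0 counts in the first library and 10641 in the second, with a posterior SD of 2.69 and 312 counts, and Gm7861 had 1087 and 6651. Since reads could be placed on either copy, no fold is given for Gm7849 alone. Their sum was 1087 and 17292 counts, a log2 ratio of 3.36. With the 6 genes added, the alpha-defensin sum was 5639 and 39742 TPM, its share of TPM 0.564% and 3.97%, and its log2 ratio 1.74.

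The differences between libraries were tested for the 18 alpha-defensin genes with 20 or more counts over both, by an exact binomial test that covers counting error only. Of these, 17 passed at an adjusted p under 0.05, 10 were called higher in the second library with a difference of 2-fold or more, 4 (Defa17, Defa31, Defa34 and Defa2) were called higher in the first, and 4 (Defa37, Defa5, Defa26 and Defa-ps6) were not called. Over all 15194 tested genes, the second library was called higher for 40.2% and the first for 27.4%. The alpha-defensin calls count copies that share reads as separate genes. Defa17, Defa31 and Defa2 belong to near-identical groups whose sums had log2 ratios of 0.96, 1.22 and 3.03. Defa34 stood at -0.82 after removal of the GC trend, inside the 2-fold limit. Of the 10, Defa3, Defa20, Defa21, Defa22, Defa23, Defa32 and Defa33 also belong to such groups. The median log2 ratio was 1.96 over the 18 alpha-defensin genes and 0.26 over all tested genes. With library sizes taken from total counts, the median of all tested genes was 1.10, and the second library was called higher for 7800 genes and the first for 1520, compared with 6101 and 4160 under TMM. The alpha-defensin calls stayed at 10 and 4, and their median became 2.80.

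**Figure D3:**
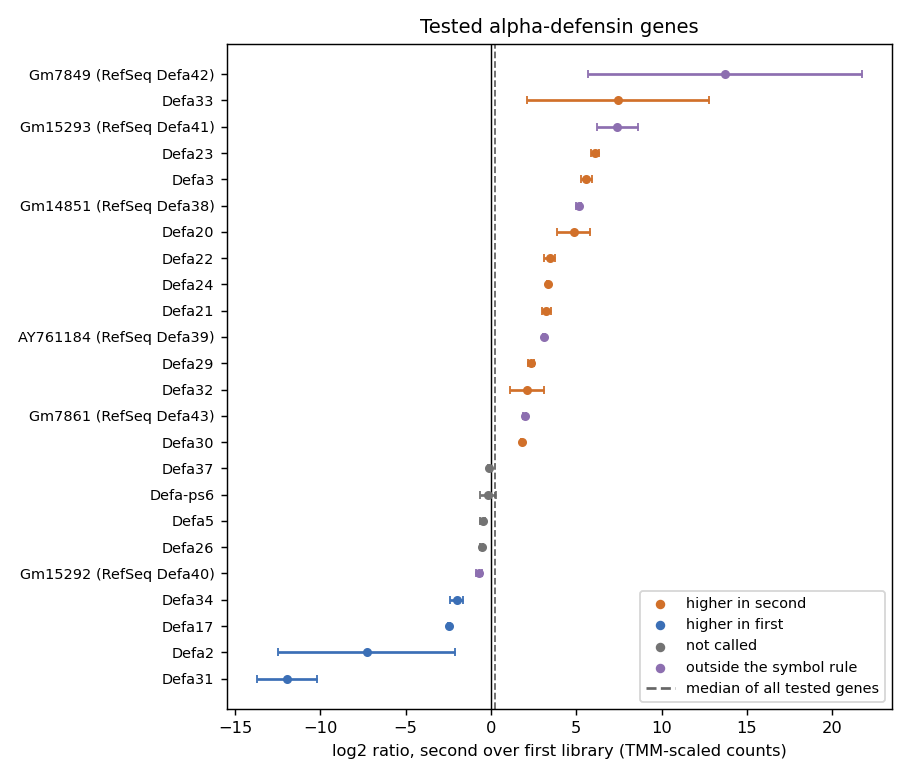
Log2 ratios of TMM-scaled counts, second over first library, for the 18 tested alpha-defensin members and 6 RefSeq alpha-defensins outside the symbol rule. Bars are SEs from counting and the deposited posterior SD, and the dashed line is the median of all tested genes at 0.26. Fitted values run from -11.94 (Defa31) to 13.74 (Gm7849), and those of Gm7849, Defa33 and Defa2 rest on a count under 1 in 1 library, and the values just below 0, for Defa37, Defa-ps6 and Defa5, turn positive when scaled by total counts or after removal of the GC trend, as does Defa26 when scaled by total counts.

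GC content and length moved with the library difference over all genes. After removal of the GC trend the median was -0.02 over all tested genes and 1.38 over the alpha-defensin genes, and the alpha-defensin calls were 10 and 3, beside 18.6% and 18.4% of all tested genes. The median GC content of all 39 alpha-defensin genes, tested or not, was 49.6%. Among 1749 tested genes within 1 percentage point of it, the median log2 ratio was 0.06. These genes were not matched to the GC content of the tested alpha-defensin genes alone. Alpha-defensin transcripts are short, with a median model length of 372 bases over the 39 genes, and the 379 tested genes shorter than 500 bases had a median log2 ratio of 1.87. The part of length or GC content in the alpha-defensin difference was not tested.

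**Figure D4:**
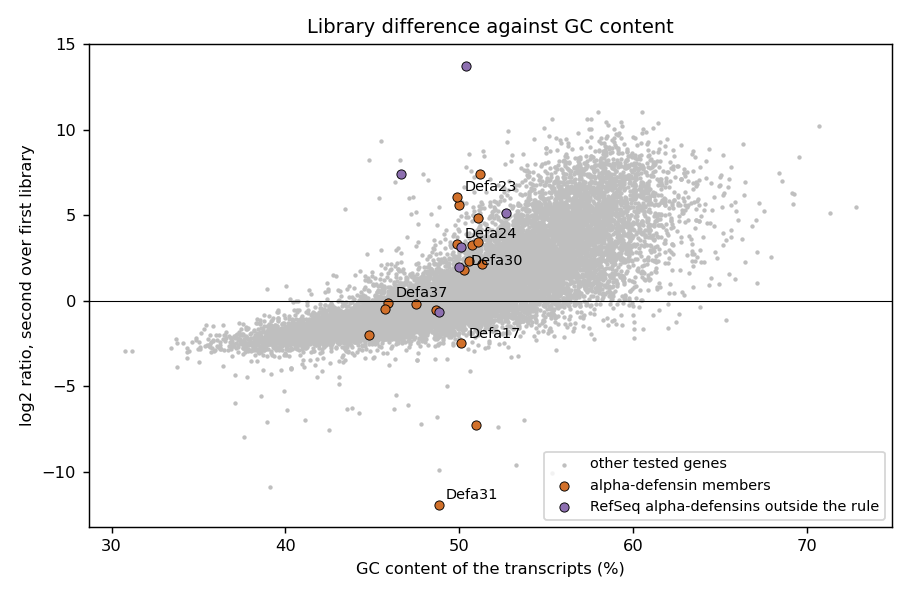
Log2 ratio, second over first library, against GC content in percent for nuclear genes with 20 or more counts over both libraries (grey), alpha-defensin members (orange) and RefSeq alpha-defensins outside the rule (purple). The grey points rise with GC content. The tested alpha-defensin members lie between 44.8% and 51.3% GC, where Defa23 and Defa24 are above the grey band and Defa17 and Defa31 below it.

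The alpha-defensin pseudogenes were low. Defa-ps6 had the most counts, 15 and 20.7 (5.14 and 10.1 TPM), with a log2 ratio of -0.18 (exact binomial test, adjusted p = 0.90) that was 0.66 when scaled by total counts and 0.34 after removal of the GC trend. Defa-ps1 had 3 and 8.29 counts, Defa-ps18 had 2 and 8.04, Defa-ps7 had 0 and 3 and Defa-ps4 had 0 and 1. The other 12 pseudogenes had 0 counts in both libraries. Short models make such values look larger in TPM: the 3 counts of Defa-ps7, whose model has 168 bases, gave 8.14 TPM, a value at its floor.

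A few coding alpha-defensin genes were also at the limit of detection. Defa27 had 2 and 2 counts, Defa28 had 2 and 3.96, and Defa35 had 0 and 1.09. Defa25 had 0 counts in both libraries. The 3-count floors of these genes lay between 0.484 and 1.06 TPM in the first library and between 0.72 and 1.49 TPM in the second. Defa36 was also listed at 0 counts in both, but its reads could be placed on Defa37, so a floor does not bound its level. Its deposited intervals ran up to 6.34 TPM in the first library and 4.50 TPM in the second.

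Beta-defensin genes, by contrast, were nearly without reads. Of the 43, 40 had 0 counts in both libraries, and none reached 1 TPM or the 20 counts needed for a test. Defb37 had 1 and 3 counts (0.21 and 0.90 TPM). Defb1, the beta-defensin made in many epithelia, had 2 and 2 counts (0.10 and 0.15 TPM), and Defb42 had 1 and 0 (0.02 TPM and listed at 0). The family total was 4 counts (exact Poisson 95% interval 1.09 to 10.2) in the first library and 5 counts (1.62 to 11.7) in the second, or 0.33 and 1.05 TPM. Its log2 ratio of -0.34 had a counting SE of 0.92 and was positive when scaled by total counts (0.50) or after removal of the GC trend (1.30), so no direction was detectable.

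The members with 0 counts lie on chromosome 1 (3 genes), chromosome 2 (11 genes), chromosome 8 (22 of 24 genes there) and chromosome 14 (4 of 5). They include Defb2, Defb3, Defb4 and Defb14, which are known as inducible beta-defensins of surface epithelia. What 3 counts would amount to ranged from 0.059 to 5.63 TPM in the first library (median 0.617) and from 0.193 to 6.92 TPM in the second (median 0.904). For the shortest models, such as Defb46 with 174 bases, a level of several TPM was therefore not detectable. Shared sequence was not the limit here, as 41 of the 43 had 95% or more distinct 75-base windows.

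**Figure D5:**
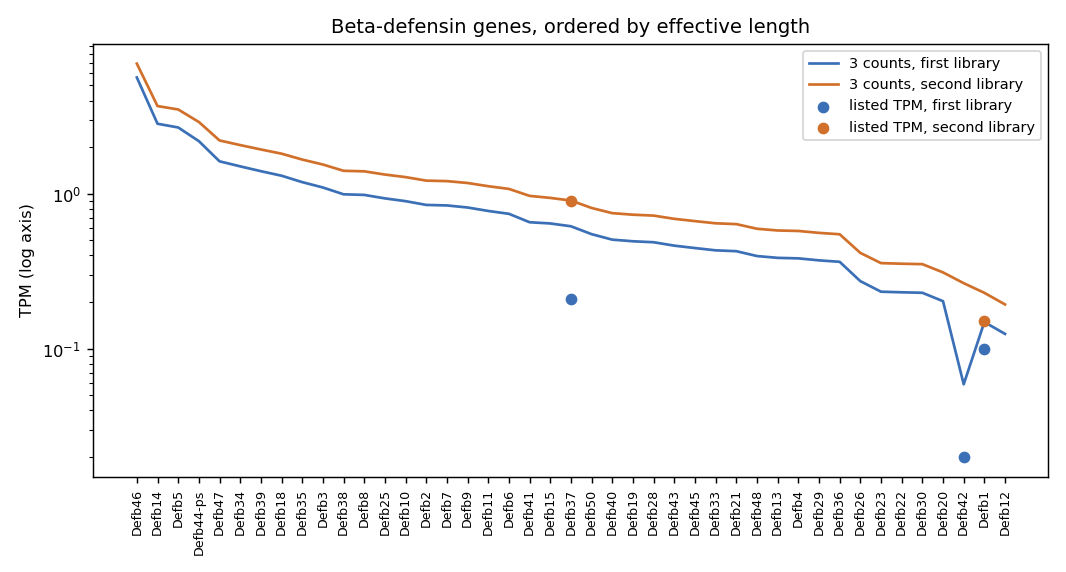
TPM on a log axis for the 43 beta-defensin genes, ordered from the shortest to the longest effective length in the second library. Lines show the TPM that 3 counts would give in each library and points the listed TPM of the 3 genes with any count. The points for Defb37, Defb42 and Defb1 lie on or below their lines.

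Alpha-defensin TPM exceeded beta-defensin TPM by 16335-fold in the first library and 31169-fold in the second. By counts the ratios were 8174 (95% interval 3192 to 29999) and 28860 (12367 to 88882), with intervals from the counting error of the beta-defensin sum. Neutrophil and squamous markers were read beside this, since defensins of either family can come from other cells in other species or tissues. The neutrophil markers held 1 and 8 counts in all, with Ly6g, Mpo, Elane and Ngp at 0, and of the squamous markers Krt5 and Krt14 were at 0 while Krt10 had 50 and 40 counts. The epididymis markers Crisp1, Lcn8 and Rnase10 summed to 0 and 3 counts.

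Of 28 genes that act on defensins or in the cells that make them, Mc1r had 0 counts in both libraries, and Kcnn4 and Tlr9 had 0 counts in the first. In this list 26 were tested, 11 were called higher in the second library, 8 higher in the first and 7 were not called, near the 40.2% and 27.4% of all tested genes, with a median log2 ratio of 0.23 beside 0.26 for all tested genes. After removal of the GC trend the counts were 8 and 8, beside 18.6% and 18.4% of all tested genes. Mmp7, the protease that activates cryptdins, stood at 21.5 and 59.8 TPM, from 560 and 1003 counts, a log2 ratio of 0.21 (SE 0.0761) that was within 2-fold. The disulfide isomerase Agr2 stood at 85.3 and 372 TPM (log2 ratio 0.86) and Pdia6 at 12.9 and 73.6 TPM (1.40, called higher in the second library). After removal of the GC trend Agr2 stood at 1.67 and Pdia6 at 1.62, and both were called higher in the second library.

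Of the 7 genes of transcription and lineage, the second library was called higher for 3 and the first for 2, beside 40.2% and 27.4% of all tested genes. With the GC trend removed, the calls were 1 and 4, with Gfi1 going from 1.22 to -3.62 and Atoh1 from 1.21 to -0.47. Ctnnb1, which encodes beta-catenin, was the most abundant at 134 and 296 TPM (log2 ratio -0.14, and -1.003 after removal of the GC trend). Sox9, needed for Paneth cells, stood at 3.65 and 3.58 TPM (log2 ratio -1.31), and Tcf7l2, a partner of beta-catenin, at 8.86 and 10.0 TPM (-1.29). Both were called higher in the first library. Of the Wnt signal genes, the receptor Fzd5 stood at 9.26 and 24.2 TPM (log2 ratio 0.09, and -3.94 after removal of the GC trend). The ligand Wnt3 stood at 0.07 and 0.73 TPM (2.01, and 0.57 after removal of the GC trend).

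Among 6 genes of granule packaging and secretion, Rab2a was the most abundant at 135 and 107 TPM and was called higher in the first library (log2 ratio -1.61, and -0.33 after removal of the GC trend). Atg16l1, needed for normal Paneth granules, stood at 4.32 and 15.3 TPM (log2 ratio 1.12) and the potassium channel gene Kcnn4 had 0 and 372 counts. Of the 5 sensing genes, Myd88 was the most abundant at 1.91 and 22.9 TPM (log2 ratio 2.29, and -1.54 after removal of the GC trend), and Nod2 stood at 0.13 and 0.80 TPM. Of the 4 receptor and chemotaxis genes, Ccl20 stood at 3.80 and 4.10 TPM (log2 ratio -1.004, and 1.09 after removal of the GC trend). Ccr6, the receptor used by beta-defensins, had 2 and 8 counts and was not tested.

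Paneth cell genes other than defensins were set beside the alpha-defensins as markers of the same cells. Their values are transcript levels and do not show that a working product is made. Lyz1, the Paneth lysozyme, stood at 795 and 2181 TPM, from 25270 and 44613 counts, with a log2 ratio of 0.19 (SE 0.0114). That is below the alpha-defensin family value of 1.51 and near the value of Mmp7. Ang4, Itln1, Pla2g2a and Habp2 were called higher in the second library, as were 40.2% of all tested genes, with log2 ratios of 1.16, 2.89, 4.03 and 1.59. The value of Pla2g2a rested on 6 and 164 counts and that of Habp2 on 40 and 189. No gene of the 6 in this list was called higher in the first. After removal of the GC trend 3 calls were left, beside 18.6% of all tested genes, and Habp2 stood at -0.34. Lyz1 then stood at 0.65 and Mmp7 at 0.62, beside 1.35 for the alpha-defensin family.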

How the data were processed

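Per the labels, poly(A) RNA of 1 mouse small intestine was sequenced in 2 technical libraries, so p-values compare these libraries and cover counting error only. The authors deposited a gene and a transcript table per library with RSEM column names. Assembly mm10 and annotation M4 are named in the deposited notes. The sources used here do not give the aligner, the read length or the quantifier's settings. Expected counts were deposited as estimates that need not be whole, since reads matching several genes were shared among them. Posterior mean counts, their SDs and credibility intervals of TPM were also deposited, without a stated level for the intervals in the sources used here. TPM was deposited as a level per effective length, scaled to a common sum. The deposited FPKM values were used for 1 alternative. The isoform percent in the deposited transcript tables entered no value here, while transcript TPM gave 1 alternative sum.

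Symbols came from M21 for 42462 of 43346 genes by identifier without version, and 26345 entries that are no Ensembl gene had 0 counts. The members, the gene lists and the rule for named genes were chosen with earlier results of these data known. The rule took members at 1 TPM or 20 counts, with full values for the 10 alpha and 5 beta members of highest mean TPM, genes at 0 in 1 library and 20 or more counts in the other, and leading list genes per role. Other members were named after their values were seen. Near-identical copies were pairs aligned over at least 250 bases with at least 99.5% identity, and these groups were also formed after the values were seen. No model with residual degrees of freedom, such as edgeR's quasi-likelihood fit, was possible with 1 library per side. An exact binomial test, two-sided, (scipy 1.17.1) was run on rounded expected counts for genes with 20 or more counts, with the split from TMM sizes (edgeR 4.0.16), and adjusted over all genes tested by Benjamini-Hochberg. Calls needed an adjusted p under 0.05 and 2-fold. Log2 ratios used 0.5 prior counts. The test was tested on simulated data. The GC trend was a lowess fit (span 0.3, statsmodels 0.14.6). A distinct window is one found in no M21 transcript of another gene. Floors are 3 counts in 1 library. The reads carry no molecular identifiers and so may not count separate molecules, and intervals, floors and SEs cover counting error, with the posterior SD added where the SE of a single member is given. Alternatives used DESeq2 1.42.0 size factors, total counts, posterior means, GC removal and other filters. No protein sequences were used here.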

Additional observations from a re-analysis of the deposited data

How the results depend on the processing

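The number of alpha-defensin genes called higher in the second library was 10 under all 6 alternatives, and that of beta-defensin genes was 0 under the same 6. That 0 comes from a lack of counts: without the count filter 3 beta-defensin genes were tested and none was called. The alpha-defensin log2 ratio of 1.51 was 1.46 with DESeq2 size factors, 2.35 with total counts and 1.35 after GC removal. The 2 alternatives chosen after seeing the data gave 1.74 (with the 6 RefSeq genes) and 2.70 (members with posterior SD under 2). The beta-defensin log2 ratio of -0.34 turned to 0.50 with total counts and 1.30 after GC removal, with a counting SE of 0.92. Mean summed TPM over the libraries was 19059 for alpha-defensins (5391 to 32728 with either library left out, and 30613 without mitochondrial genes) and 0.69 for beta-defensins (0.33 to 1.05). The beta-defensin value was 17.9 by posterior mean TPM, which gives every gene a prior count, and 1.27 without mitochondrial genes. Alpha-defensin genes detected in both libraries numbered 16, and 11 at 5 TPM. Of 108 values for 18 members under alternatives, 100 kept direction and call. With total counts the signs turned for Defa-ps6 (0.66), Defa26 (0.29), Defa37 (0.72) and Defa5 (0.37), and after GC removal for Defa-ps6 (0.34), Defa37 (0.81) and Defa5 (0.50). Defa34 lost its call after GC removal (-0.82). The cause of these changes was not tested. No paired analysis was possible because both libraries belong to 1 group. With 4 and 5 counts in all, counting error limits what the beta-defensin values can show.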
